A study of Homo sapiens with 4 samples.

Results

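The JAK and STAT signalling genes described here were 10 rows of the deposited gene count table, taken by gene name: the receptor chain IL6ST, the kinases JAK1, JAK2 and TYK2, the transcription factors STAT3, STAT5A, STAT5B and STAT6, and the feedback inhibitors SOCS2 and SOCS3. Each of the 10 names was found on 1 row, among 57014 rows that carry a gene name, and all 10 passed the filter on low counts. The table comes from poly(A)-selected RNA of 22Rv1, a human prostate cancer cell line, grown in RPMI-1640 with fetal bovine serum. There were 2 control libraries (genotype labelled Wilde Type, sgGFP in the library name) and 2 CD276 knockout libraries (sgCD276 in the library name). By their replicate numbers they are called control 1, control 3, knockout 1 and knockout 3. CD276 encodes the surface protein B7-H3, and the comparison asks what differs in this line once it is knocked out. The labels do not say whether the edited cells were a clone or a pool. The replicates are called biological without a word on separate cultures, so each p reflects only the spread between these libraries, which may be technical.

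Cytokine receptors of this pathway have no kinase of their own. Binding of a cytokine or growth hormone brings receptor chains together, the JAK kinases bound to them phosphorylate the receptor, and STAT proteins dock there, are phosphorylated, form dimers and enter the nucleus to act on promoters. SOCS proteins are induced by STATs and shut the receptor complex down, and phosphatases remove the phosphate groups. In prostate tumours, IL-6 signalling through STAT3 and prolactin signalling through STAT5 have been studied as drivers of growth. Transcript counts measure the amount of each component and not its phosphorylation.

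Total counts over named rows ran from 20079050 to 25802417, and 1 CPM (a count per 1e6 counts of the library) equalled 20.1 to 25.8 counts. Levels are normalized CPM (mean ± SD, n = 2 libraries per group), and differences are log2 ratios, knockout to control, ± SE. "Rose" and "fell" are used only where edgeR's quasi-likelihood F test had an adjusted p (Benjamini-Hochberg, all 18043 genes tested) under 0.05. By that rule 22.8% of all genes tested passed, 9.87% higher and 12.9% lower in the knockouts, and for 65.9% the groups did not overlap. The targeted gene CD276 had 1058 (control 1), 1054 (control 3), 621 (knockout 1) and 679 (knockout 3) counts, which is -1.03 ± 0.16 on the log2 scale (edgeR adjusted p = 0.00561). Mitochondrial transcripts took 5.84% to 6.15% of control counts and 1.46% to 1.78% of knockout counts, and the part of this gap in the results was not tested. With library totals as the only scaling, the median of all genes moved up by 0.11 and calls split into 2340 higher and 1781 lower in place of 1780 and 2331. All 9 luminal prostate markers were detected and 1 of them, KRT18, fell, with KLK3 at 33.8 ± 2.64 normalized CPM in control libraries. Of 7 blood and immune markers CD3E was at 0 throughout, PTPRC had 0 to 3 counts per library, and the sum over all 7 was 2.01 to 2.37 normalized CPM in control and 1.14 to 2.51 in knockout libraries. Of 8 markers of fibroblasts and endothelium PECAM1 and CDH5 were at 0 throughout, LUM rose (0.84 ± 0.21) and COL1A1 fell (48.1 ± 2.70 to 24.0 ± 7.25). Their sum was 55.8 to 62.6 normalized CPM in control and 36.0 to 50.8 in knockout libraries, and its part in the results was not tested.

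STAT5A and STAT5B lie head to head on chromosome 17, 10.8 kb apart, and share long stretches of sequence, which bears on how their reads could be assigned. The longest run common to their main protein-coding transcripts is 429 bases long, and a read pair from within it matches both genes. It lies wholly in the coding part of both transcripts, in exons 7 to 10 of STAT5A (chr17:42299764-42301277, plus strand) and exons 6 to 9 of STAT5B (chr17:42218328-42219829, minus strand), in GENCODE 29 on GRCh38. Its first 150 bases are shown, in lower case since every base is the same in both.
STAT5A and STAT5B shared run: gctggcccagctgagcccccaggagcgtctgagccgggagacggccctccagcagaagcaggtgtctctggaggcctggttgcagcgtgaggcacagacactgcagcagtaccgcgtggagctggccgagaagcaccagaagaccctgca
Of all 75-base words of the STAT5A transcript 9.96% also occur in STAT5B, and of those of the STAT5B transcript 8.37% occur in STAT5A. The IL6ST transcript shares 7.68% of its words with 3 other annotated genes, mostly with AC008914.1 on the opposite strand, which was at 0 counts in all 4 libraries. For the other 7 genes the longest protein-coding transcript shares no 75-base word with another annotated gene. Words of their other transcripts were not searched. SOCS2 shares 4.09% of its exonic bases with SOCS2-AS1 on the opposite strand (1 to 11 counts per library), STAT6 shares 1.75% with LRP1 and NAB2, and JAK1 shares 0.063% with RAVER2, all on the opposite strand.

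STAT dimers bind palindromes of the form TTCNNNGAA, and STAT6 prefers a spacing of 1 base more, TTCNNNNGAA. Both forms read the same on either strand. They were searched in the 250 bases before the RefSeq start (GRCh38.p14), where 9 of the 10 genes matched an entry by symbol, all but SOCS2. RefSeq starts can differ from those of GENCODE, and only 1 entry per gene was searched. The JAK1 window (chr1:65067747-65067996) lay far before the GENCODE start of JAK1 at 64966504. The STAT6 window (chr12:57110290-57110539) lay inside the GENCODE gene body of STAT6. The STAT5B window (chr17:42276392-42276641) likewise lay inside the GENCODE gene body of STAT5B. That of SOCS3 (chr17:78360926-78361175) did not reach the GENCODE start at 78360077. The STAT5A window (chr17:42287189-42287438) ended short of the GENCODE start of STAT5A at 42287547. The bases just before those GENCODE starts were thus not searched. TTCNNNGAA occurred in 0 of the 9 windows, against 6.57% of 35116 RefSeq windows of the same length. TTCNNNNGAA occurred in 1 of the 9, that of STAT5A, against 5.38%. CISH, a SOCS family inhibitor and textbook STAT5 target, had 4 matches to TTCNNNGAA and is shown beside STAT5A to make the motif visible, a choice made after its values were seen. Matches are in capitals, flanked by up to 30 bases.
STAT5A (chr17:42287189-42287249, plus strand): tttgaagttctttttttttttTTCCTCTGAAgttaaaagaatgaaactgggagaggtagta
CISH (chr3:50611848-50612024, minus strand): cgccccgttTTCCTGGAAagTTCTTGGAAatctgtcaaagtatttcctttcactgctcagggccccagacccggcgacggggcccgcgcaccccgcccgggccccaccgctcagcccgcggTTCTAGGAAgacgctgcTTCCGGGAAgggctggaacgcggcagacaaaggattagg
The match in the STAT5A window lies 229 to 220 bases before the RefSeq start. A match describes the letters of a window and not a bound site.

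Of the 10 genes, STAT3 and STAT5A rose, JAK1 and TYK2 fell, and 6 did not pass the test. That is 4 of 10 called, where 22.8% of all genes tested were called, and the median log2 fold change of the 10 was 0.22 where that of all genes tested was -0.0045. The 2 genes that rose and the 2 that fell compare with 9.87% and 12.9% of all genes. For 7 of the 10 the groups did not overlap, near the 65.9% of all genes. Both calls among the 3 kinases were downward and both calls among the 4 STATs were upward. In such bulk libraries less RNA of a gene per cell and fewer cells with it cannot be told apart. Counts of the 10 genes together made up 0.0263% to 0.0305% of each library.

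**Figure D1:**
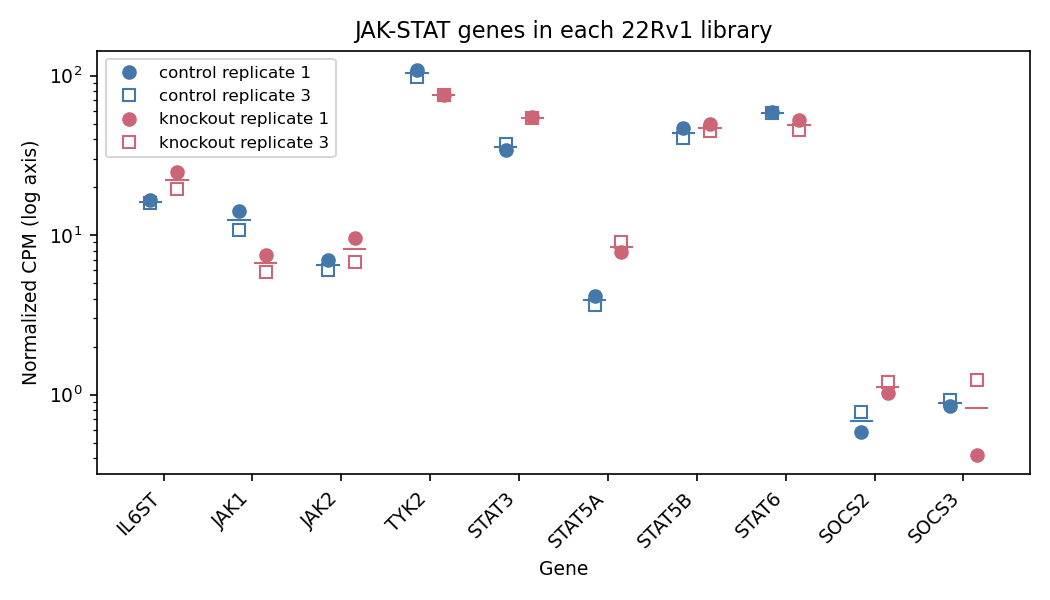
Normalized CPM (log axis) of the 10 JAK-STAT genes in each library; blue marks controls, red marks CD276 knockouts, filled circles replicate 1, open squares replicate 3, and short lines the group means (n = 2). STAT3 and STAT5A lie higher and JAK1 and TYK2 lower in both knockout libraries than in both controls, while the 2 knockout libraries lie on either side of the controls for SOCS3.

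JAK1, the kinase that pairs with IL6ST, with interferon receptors and with many interleukin receptors, fell by about 1.87-fold. It is encoded on chromosome 1 (64833229 to 64966504, minus strand; this and the later positions are GENCODE 29 gene bodies on GRCh38). JAK1 levels were 14.2 (control 1), 10.8 (control 3), 7.50 (knockout 1) and 5.84 (knockout 3) normalized CPM. Both knockouts lay below both controls. The group means of 12.5 ± 2.41 and 6.67 ± 1.18 correspond to -0.91 ± 0.23 on the log2 scale (edgeR adjusted p = 0.0269). With library totals alone JAK1 was at -0.79 and the call was kept only narrowly (edgeR adjusted p = 0.0493).

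TYK2, a kinase of interferon, IL-12 and IL-10 family receptors (chromosome 19, 10350529 to 10380676, minus strand), was the most abundant of the kinases. It fell by a smaller fold than JAK1, about 1.37-fold. Its levels were 108 (control 1), 98.1 (control 3) and 75.2 normalized CPM in each of the knockouts. The controls were further from each other than the knockouts were, and the groups did not overlap. The fitted difference was -0.46 ± 0.13 (edgeR adjusted p = 0.0401). This call lay close to the threshold and was lost with library totals alone (edgeR adjusted p = 0.104), with DESeq2 (0.0506), with the replicate number as a block (0.0534) and with GC and length offsets (0.0794). The value stayed below 0 in all 14 alternatives, from -0.53 to -0.34.

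JAK2, the kinase of growth hormone, prolactin and erythropoietin receptors (chromosome 9, 4984390 to 5128183, plus strand), did not pass. Its levels were 6.99 (control 1), 6.04 (control 3), 9.63 (knockout 1) and 6.80 (knockout 3) normalized CPM, so that knockout 3 lay between the controls. The difference was 0.33 ± 0.25 with a 95% interval of -0.23 to 0.90 (edgeR adjusted p = 0.354). The JAK2 difference was 0.63 where knockout 3 was left out and 0.07 where knockout 1 was left out.

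The kinases stood in different proportions to each other in the 2 groups. JAK2 over JAK1, a ratio within each library that no scaling alters, was 0.492 (control 1), 0.560 (control 3), 1.28 (knockout 1) and 1.17 (knockout 3), 2.33 times as high on average in the knockouts. JAK2 counts were thus the lower of the pair in both controls and the higher in both knockouts. With 2 libraries against 2, an exact two-sided permutation test cannot give a p below 0.333, and each of the 7 ratios computed between these genes gave that p. Per kb of exon, TYK2 made up 80.9% and 83.0% of the summed level of the 4 JAK kinases in control libraries and 78.8% and 79.7% in knockout libraries. JAK1 made up 11.4% and 9.78% against 8.43% and 6.63%, and JAK2 5.73% and 5.61% against 11.1% and 7.91%.

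STAT3, the factor activated through IL6ST (chromosome 17, 42313324 to 42388568, minus strand), rose about 1.52-fold. STAT3 levels were 34.0 (control 1), 37.3 (control 3), 54.7 (knockout 1) and 53.8 (knockout 3) normalized CPM. The distance between the groups was larger than that between the libraries of either group. The means of 35.7 ± 2.36 and 54.3 ± 0.59 correspond to 0.61 ± 0.14 on the log2 scale (edgeR adjusted p = 0.0196).

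STAT5A, a factor of prolactin and growth hormone signalling (chromosome 17, 42287547 to 42311943, plus strand), rose about 2.15-fold from a low level, the largest fitted rise of the 10. It had 93 (control 1), 71 (control 3), 205 (knockout 1) and 234 (knockout 3) counts, or 4.16, 3.67, 7.81 and 9.05 normalized CPM in that order. Both knockouts lay above both controls. The fitted difference was 1.10 ± 0.24 (edgeR adjusted p = 0.0147).

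STAT5B, the paralog that carries much of the response to growth hormone (chromosome 17, 42199168 to 42276707, minus strand), did not pass. Its levels were 47.0 (control 1), 40.6 (control 3), 49.6 (knockout 1) and 44.7 (knockout 3) normalized CPM, so the groups overlapped. The difference was 0.11 ± 0.15 with a 95% interval of -0.24 to 0.45 (edgeR adjusted p = 0.647). STAT5A counts were 0.0886 (control 1), 0.0902 (control 3), 0.157 (knockout 1) and 0.202 (knockout 3) of those of STAT5B, 2.01 times as high on average in the knockouts. STAT5B stayed the more abundant paralog in every library. No source used here says how reads from the shared run shown above were counted, and their part in these values was not tested.

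STAT6, the factor of IL-4 and IL-13 signalling (chromosome 12, 57095408 to 57132139, minus strand), did not pass. Its levels were 58.8 (control 1), 58.1 (control 3), 52.9 (knockout 1) and 45.7 (knockout 3) normalized CPM, with both knockouts below both controls. The difference was -0.25 ± 0.14 with a 95% interval of -0.57 to 0.08 (edgeR adjusted p = 0.238). Where knockout 1 was left out STAT6 was at -0.34, and where knockout 3 was left out at -0.08.

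**Figure D2:**
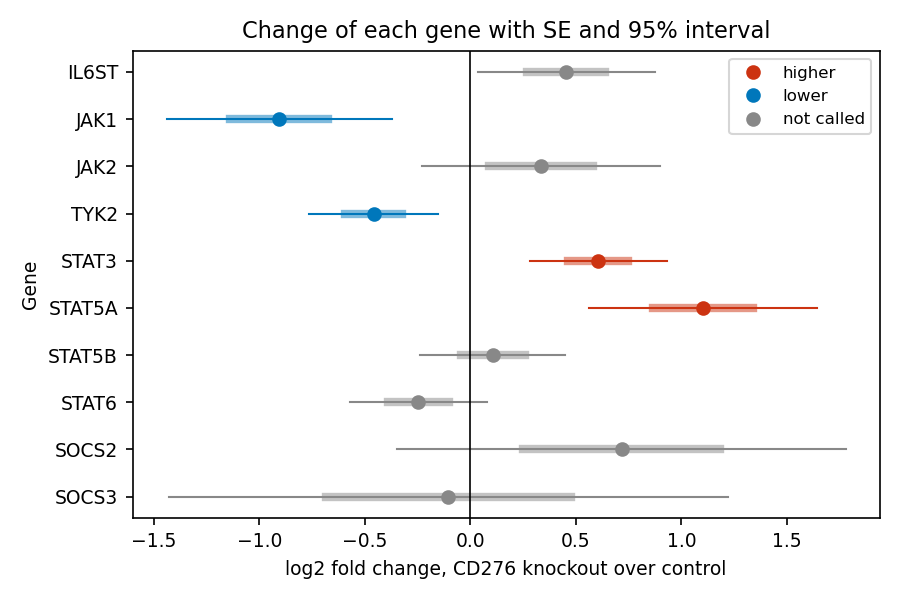
Log2 fold change of knockout over control for each of the 10 genes (x axis), with a thick bar for ± SE and a thin line for the unadjusted 95% interval; red marks genes that rose, blue genes that fell, grey genes that did not pass an adjusted p of 0.05. The intervals of SOCS2 and SOCS3 are the widest, reaching from -0.35 to 1.78 and from -1.43 to 1.22.

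Among the 4 STATs described here, STAT6 made up 40.4% and 41.6% of their summed level per kb of exon in control libraries and 32.2% and 29.97% in knockout libraries. STAT3 made up 19.4% and 22.1% against 27.6% and 29.3%, and STAT5A 3.63% and 3.33% against 6.03% and 7.53%. STAT5B took 36.6% and 32.9% against 34.2% and 33.2%, so its share overlapped between the groups. By this length STAT6 led this set in both controls, and STAT5B in both knockouts. Divided by the longest transcript instead, STAT6 had the highest mean in both groups, so the change of leader depends on the length used. STAT3 over STAT6 was 0.579 (control 1), 0.643 (control 3), 1.03 (knockout 1) and 1.18 (knockout 3). Outside the 10, STAT2, a factor of type I interferon signalling, and JAK3, the JAK kinase of lymphoid receptors, did not pass, at means of 35.9 and 37.2 and of 2.28 and 3.56 normalized CPM.

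**Figure D3:**
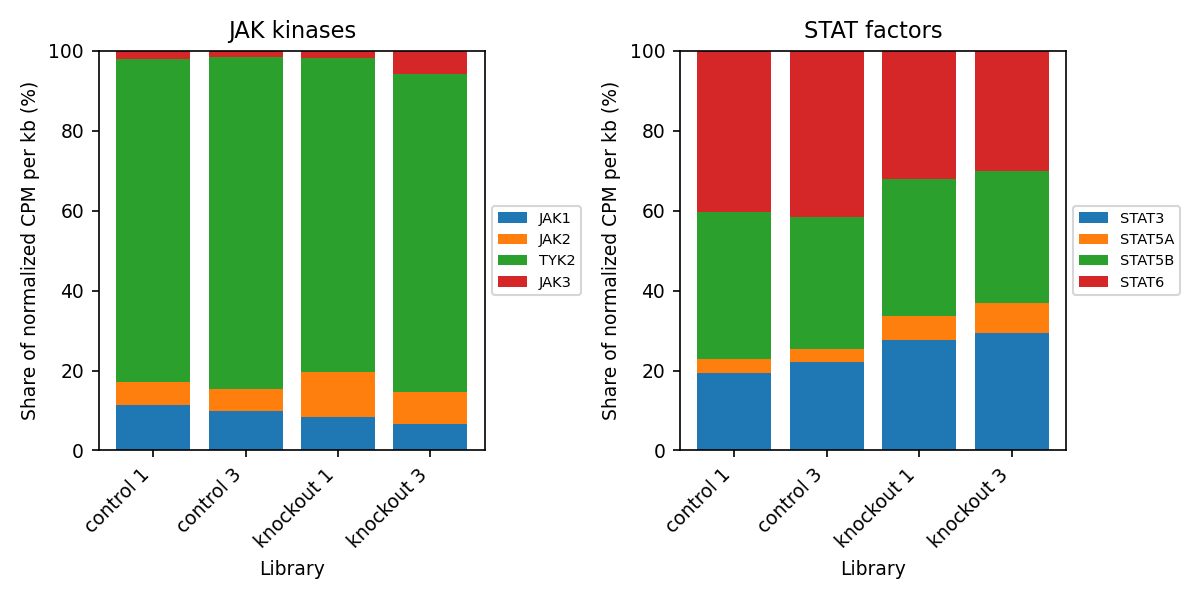
Share (%) of each gene in the summed normalized CPM per kb of exon of the 4 JAK kinases (left) and of STAT3, STAT5A, STAT5B and STAT6 (right), 1 bar per library. TYK2 fills most of every JAK bar, from 78.8% to 83.0%, and the STAT3 share is 19.4% and 22.1% in the controls against 27.6% and 29.3% in the knockouts.

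IL6ST, the signal-transducing chain shared by receptors of the IL-6 family (chromosome 5, 55935095 to 55994993, minus strand), lay higher in both knockouts but did not pass. Its levels were 16.5 (control 1), 15.8 (control 3), 24.9 (knockout 1) and 19.4 (knockout 3) normalized CPM. The 2 knockouts differed from each other by more than knockout 3 differed from either control. The difference between groups was 0.45 ± 0.18 (edgeR unadjusted p = 0.0371, adjusted p = 0.105). It was 0.69 where knockout 3 was left out and 0.27 where knockout 1 was left out. IL6ST over JAK1 was 1.16 (control 1), 1.46 (control 3) and 3.32 in each of the knockouts.

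The SOCS inhibitors had the lowest levels of the 10, 0.419 to 1.24 normalized CPM. SOCS2, which limits growth hormone signalling (chromosome 12, 93569814 to 93583487, plus strand), had 13 (control 1), 15 (control 3), 27 (knockout 1) and 31 (knockout 3) counts. These are 0.582, 0.774, 1.03 and 1.20 normalized CPM in that order, with both knockouts above both controls. The fitted difference of 0.72 ± 0.47 did not pass (edgeR adjusted p = 0.291). SOCS3, which binds IL6ST and blocks JAK activity (chromosome 17, 78356778 to 78360077, minus strand), had 19 (control 1), 18 (control 3), 11 (knockout 1) and 32 (knockout 3) counts. The knockouts lay on opposite sides of the controls, at -0.95 and 0.44 from the control mean on the log2 scale. The fitted difference of -0.10 ± 0.58 (edgeR adjusted p = 0.914) turned positive with GC and length offsets (0.0086) and where knockout 1 was left out (0.49).

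Per kb of exon the order of the 10 genes in control libraries was TYK2 at 15.2 normalized CPM per kb, STAT6 at 8.005, STAT5B at 6.80, STAT3 at 4.05, JAK1 at 1.98, IL6ST at 1.74, JAK2 at 1.06, STAT5A at 0.680, SOCS3 at 0.326 and SOCS2 at 0.100. JAK1 and IL6ST overlapped there, at 2.25 and 1.71 for JAK1 and 1.78 and 1.70 for IL6ST, and the other neighbours in that order did not. In knockout libraries JAK1 was the eighth at 1.06, after IL6ST at 2.38, STAT5A at 1.46 and JAK2 at 1.33. STAT5B at 7.32 led STAT6 at 6.75 and STAT3 at 6.16 there. Of neighbours in the knockout order, STAT5B overlapped with STAT6, JAK2 with STAT5A and with JAK1, and SOCS3 with SOCS2. Divided by the longest transcript instead, STAT6 led these 3 at 12.2, ahead of STAT3 at 10.8 and STAT5B at 9.24. TYK2 was first, and SOCS3 and SOCS2 last, with either length in both groups.

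STAT3 and STAT5A are also neighbours in the genome: their gene bodies converge on chromosome 17 with 1.38 kb between their ends, and both rose. CAVIN1, a coat protein gene of caveolae and the nearest protein-coding gene on the far side of STAT3, had means of 3.69 and 11.98 normalized CPM and rose as well (1.70 ± 0.32, edgeR adjusted p = 0.00978). GHDC, the neighbour of STAT5B on its far side, had means of 38.0 and 33.3 and did not pass (edgeR adjusted p = 0.494). Apart from the 10 themselves, 16 protein-coding genes are the nearest on either side of one of them without overlapping it, and 11 of these were tested. Genes that overlap one of the 10, such as RAVER2, LRP1 and NAB2, were left out. Of the 11, 3 rose (CAVIN1, AK4 at 181044 bases from JAK1 and CRADD at 93887 bases from SOCS2) and 0 fell, where 22.8% of all genes were called. DESeq2 called the same numbers, and 4 were higher and 0 lower by either tool where p was left unadjusted. These neighbours were taken by position after values of the 10 were seen.

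The rest of the pathway was described from 6 lists ordered by role, with 104 genes beyond the 10, some of them in more than 1 list. All 104 were in the table and 71 passed the filter. Of the 104, 18 were at 0 counts in all libraries, among them the cytokines IL6 and OSM and the hormone PRL, and a count of 0 allows up to 3 counts. Of the 71, 9 rose and 6 fell, 21.1% called against 22.8% of all genes tested, with a median log2 fold change of 0.15.

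**Figure D4:**
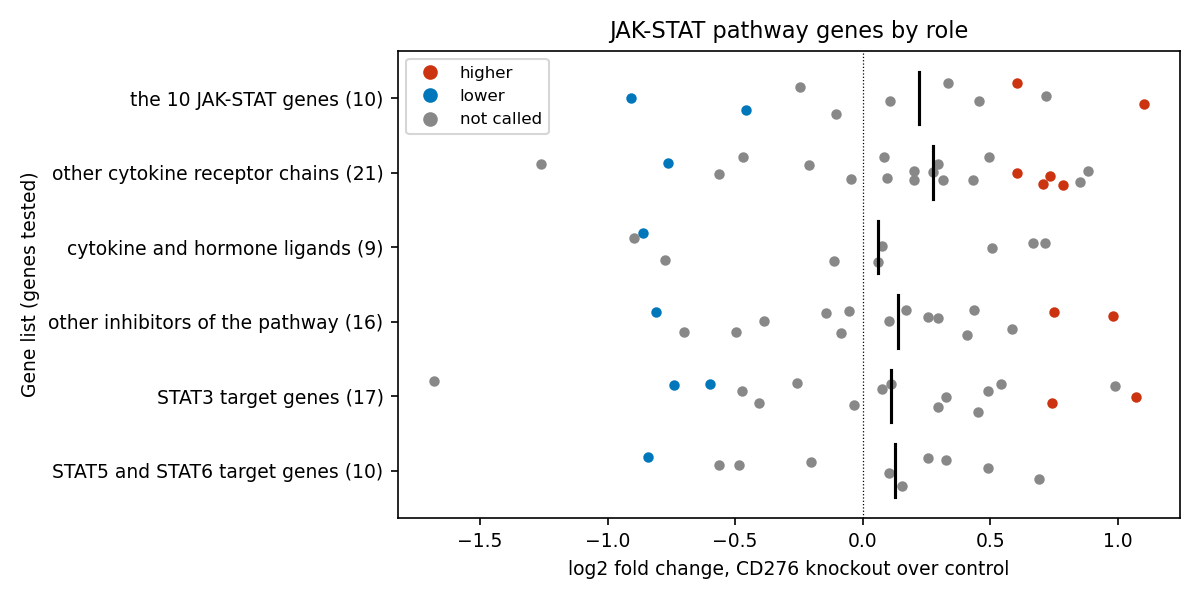
Log2 fold change of knockout over control (x axis) of the tested genes among the 10 and in 5 of the lists by role, 1 point per gene, with vertical bars at the list medians and the number of genes tested in brackets; red marks genes that rose, blue genes that fell, grey genes that did not pass. The median of the receptor chains is 0.28 and that of the ligands 0.06, and each list with more than 1 called gene holds calls in both directions.

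Among the ligands 9 were tested, of which 0 rose and 1 fell by edgeR and by DESeq2, with the same counts for p left unadjusted. The ligand that fell was CLCF1, a cytokine that signals through IL6ST, LIFR and CNTFR. Its means were 7.67 ± 0.47 and 4.22 ± 0.15 normalized CPM (-0.86 ± 0.23, edgeR adjusted p = 0.0301), and with GC and length offsets CLCF1 did not pass (-0.69, 0.0559). TSLP, which signals through JAK1 and JAK2, had means of 3.42 and 3.18 and did not pass.

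Of 21 receptor chains tested 4 rose and 1 fell. IL13RA1, the IL-13 receptor chain that activates STAT6 together with IL4R, rose from a mean of 13.1 ± 0.93 to 22.5 ± 3.67 normalized CPM (0.78 ± 0.19, edgeR adjusted p = 0.0211). IL10RB, a chain of IL-10 family and interferon lambda receptors, rose by 0.73 ± 0.20, IFNAR1, a chain of the type I interferon receptor, by 0.61 ± 0.18, and the growth hormone receptor GHR by 0.71 ± 0.21 on the log2 scale. With GC and length offsets IFNAR1 (0.42, edgeR adjusted p = 0.0559) and GHR (0.52, 0.0928) did not pass. IFNAR1 also missed the threshold with limma voom (0.59, adjusted p = 0.0548), and without knockout 1 it was at 0.37. IL11RA, the IL-11 receptor chain that pairs with IL6ST, fell from a mean of 22.7 ± 2.40 to 13.4 ± 0.58 (-0.76 ± 0.17, edgeR adjusted p = 0.0177). Same-strand genes overlap 38.1% of the exonic bases of IL10RB and 17.4% of those of IL11RA, and counts there may be shared. EPOR, the erythropoietin receptor (means 34.8 and 25.2), and CNTFR (29.2 and 28.2), the most abundant chains that did not pass, had edgeR adjusted p of 0.166 and 0.910.

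Of 16 further inhibitors tested 2 rose and 1 fell, all 3 of them protein tyrosine phosphatases. PTPN1, which acts on JAK2 and TYK2, rose from a mean of 37.8 ± 0.04 to 74.5 ± 11.2 normalized CPM (0.98 ± 0.15, edgeR adjusted p = 0.0062). PTPN11, which also carries signals from receptors to RAS, rose from 114 ± 0.28 to 191.5 ± 40.5 (0.75 ± 0.17, edgeR adjusted p = 0.0172). PTPN2, which acts on JAK1 and STAT3, fell from 30.4 ± 1.22 to 17.4 ± 0.39 (-0.81 ± 0.16, edgeR adjusted p = 0.0108). PTPN1 and PTPN2 are close relatives and moved in opposite directions, each with both knockouts on 1 side of both controls. PTPN6, the phosphatase best known from blood cells (means 141 and 100.01), and PIAS3, an inhibitor of STAT3 binding to DNA (76.3 and 71.9), did not pass. CISH, whose promoter window is shown above, was at 10.1 (control 1), 9.60 (control 3), 8.07 (knockout 1) and 13.1 (knockout 3) and did not pass (0.10 ± 0.26).

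Of 17 STAT3 target genes tested 2 rose, 2 fell and 13 did not pass, with a median log2 fold change of 0.11. DESeq2 called 5 higher and 2 lower. MCL1, an antiapoptotic BCL2 relative, rose from a mean of 155 ± 7.01 to 259 ± 8.71 normalized CPM (0.74 ± 0.14), and HIF1A, the hypoxia factor, from 40.8 ± 4.98 to 85.7 ± 13.2 (1.07 ± 0.16). BCL3, a nuclear coactivator of the IkB family, fell from 20.99 ± 0.18 to 13.9 ± 0.85 (-0.60 ± 0.17), and CEBPB, an acute phase transcription factor, from 55.1 ± 3.50 to 33.0 ± 6.86 (-0.74 ± 0.18). MCL1, HIF1A, BCL3 and CEBPB had edgeR adjusted p of 0.00953, 0.00581, 0.0352 and 0.0207. With GC and length offsets BCL3 was at -0.21 and did not pass (edgeR adjusted p = 0.403), and CEBPB was at -0.38 (0.0496). BCL3 also missed the threshold with library totals alone, at -0.49 (0.0727). Cyclin D1 (CCND1), at means of 1572 and 2289, and MYC, at 280.01 and 302, did not pass (edgeR adjusted p = 0.0950 and 0.634). CCND1 passed with DESeq2 (adjusted p = 0.0155), and by edgeR with library totals alone (0.0470) and with no filter on low counts (0.0160). It did not pass by edgeR with RLE (adjusted p = 0.0781) or upper quartile scaling (0.124), or with the filter of 50 counts (0.122). Of 10 targets of STAT5 and STAT6 tested 0 rose and 1 fell. DESeq2 called 1 higher and 1 lower in that list, and unadjusted edgeR p-values gave 1 and 2. The gene that fell was ID1, an inhibitor of differentiation factors, with means of 295 ± 30.1 and 165 ± 19.8 (-0.84 ± 0.16, edgeR adjusted p = 0.0097), and with GC and length offsets it was at -0.53 (0.0188). BCL6, which STAT5 represses (47.7 and 34.1), and GATA3, a luminal transcription factor (53.7 and 46.7), did not pass. These targets are known from other cells, and the lists say nothing of STAT binding in 22Rv1.

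No call among the 10 was kept when either control was left out. In these fits the lone control library took its spread from the knockouts, with 1 residual degree of freedom left. Calls over all genes were far fewer as well. JAK1, TYK2, STAT3 and STAT5A kept their direction in these fits, at -0.70, -0.39, 0.54 and 1.20 without control 1 and -1.09, -0.53, 0.68 and 1.02 without control 3, with edgeR adjusted p of 0.106 to 0.491. The values of these genes in the same order were -1.09, -0.45, 0.61 and 1.22 without knockout 1. Without knockout 3 they were -0.67, -0.39, 0.69 and 1.06. There the lone knockout library took its spread from the controls, and calls over all genes were far more numerous.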

How the data were processed

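The authors deposited raw counts per gene, in 1 table with a column for each of the 4 libraries. The submitters' processing notes name Trimmomatic 0.36, STAR 2.5.2b and featureCounts of Subread 1.5.2, with GRCh38. Whether counting used strand, how multi-mapping reads were treated and which annotation was used is not stated in what was used here. Left out were 486 rows without a gene name (0.0191% to 0.0290% of a library), and 0 columns were unmapped. The filter was filterByExpr and the scaling TMM (factors 0.962 to 1.07). The test was edgeR 4.0.16 in R 4.3.3 (glmQLFit, robust=TRUE, a group term alone, leaving 2 residual degrees of freedom). The SE is the absolute log2 fold change over the square root of F, and 95% intervals use the degrees of freedom of the test. The biological coefficient of variation came to 0.158. Lengths, positions and overlaps came from GENCODE 29, promoter windows from RefSeq. The 10 genes, role lists and markers were chosen with earlier results of these data known. Named from each list were its called genes and the 2 most abundant uncalled ones. A few of these are not reported here. On simulated data with 200 changed genes among 17576 to 17645, the fit recovered 6.5% of 1.5-fold, 48% of 2-fold and 83.5% of 4-fold changes, with 4, 4 and 6 false calls. In the data a far larger share, 22.8% of all genes tested, was called. The same adjusted p then corresponds to another unadjusted p, and these rates need not apply to the data. Alternatives were RLE, upper quartile and library total scaling, 2 other filters, DESeq2 1.42.0, limma 3.58.1 (voom), robust=FALSE, a replicate block, GC and length offsets, and leaving out each library.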

Additional observations from a re-analysis of the deposited data

How the results depend on the processing

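Of 138 values of the 10 genes under the 14 alternatives, 136 kept their direction; the other 2 were those of SOCS3, 0.0086 with GC and length offsets and 0.49 without knockout 1 (from -1.01 to 0.49 over the libraries left out). The number of the 10 that fell was 1 in place of 2 with library totals alone, DESeq2, GC and length offsets and the replicate block, each time through the loss of TYK2. Deviations of same-numbered libraries from their group means correlated at r = -0.02 across genes, which are not independent. That value shows no pairing over all genes together, and pairing within a subset of genes was not tested. The replicate block gave 4843 calls over all genes in place of 4111, and gave TYK2 an edgeR adjusted p of 0.0534. Leaving out 1 library gave 0 to 4 of the 10 higher and 0 to 3 lower. Of the other pathway genes 14 rose in place of 9 with library totals alone and 14 with no filter on low counts, 10 fell in place of 6 with the replicate block, and leaving out 1 library gave 0 to 28 higher and 0 to 18 lower. Over all genes that gave 312 to 9198 calls in place of 4111. In such a fit the lone library of a group takes its spread from the other group, with 1 residual degree of freedom left. SOCS2 and SOCS3 had at most 32 counts in any library and did not pass the filter of 50 counts, so that alternative gave them no value.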
